A study of Mus musculus with 14 samples.

Results

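Annexins, S100 proteins, galectins and vimentin were followed over effector CD8+ T cells of the mouse through 9 genes: Anxa1, Anxa2, S100a4, S100a6, S100a10, S100a11, Lgals1, Lgals3 and Vim. They were chosen by name, as calcium-binding, galectin and filament genes typical of effector T cells, from 19937 genes named on the array. Earlier results of these data were known when they were chosen. All 9 were among the 14438 genes bright enough to be tested, and 10 probe sets measured them, since S100a11 has 2.

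The cells came from C57BL/6J mice and were described as effector CD8+ cells. Cells from fetal liver chimeras were moved into congenic recipients, which were infected a day later with Listeria expressing ovalbumin, and donor cells were purified by flow cytometry on day 6. The sort used KLRG1, an inhibitory surface receptor that marks terminally differentiated effector cells. Wild-type (WT) cells gave 3 KLRG1hi arrays and 5 KLRG1lo arrays, and 2 arrays of the KLRG1lo population alone came from each mutant donor type, labelled Id2KO, BimKO or Id2KOBimKO. The sample labels put OT-I, a transgenic receptor for an ovalbumin peptide, on every group except Id2KOBimKO, whose label leaves it out. Id2 holds E proteins, a class of DNA-binding regulators, away from DNA, and Bim, the product of Bcl2l11, promotes cell death. The labels do not describe how either gene was disrupted, or whether recipients or donors were pooled. Nothing says that replicates came from separate animals, so the p-values cover variation among these samples only, which may be technical.

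Annexins are calcium-dependent binders of acidic membrane lipids. The product of Anxa1 is also released from cells and dampens inflammation, while that of Anxa2 joins membranes to the actin cortex. S100 proteins are small calcium sensors that act by binding partners: S100a10 pairs with annexin A2, S100a11 with annexin A1, and S100a4 with the heavy chain of non-muscle myosin. Galectins bind galactose-bearing sugars of surface glycoproteins such as CD43 and CD45, and the sialyltransferase encoded by St6gal1 can mask those sugars. Vim encodes vimentin, the main cytoplasmic intermediate filament of lymphocytes, and many genes of this kind are known to be higher in activated than in naive T cells.

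Median linear signals of the 14 arrays lay between 49.2 and 56.8. The median log2 signal of probe sets without a gene name, used as a measure of background, lay at 5.01 to 5.07 for 6 arrays and at 5.16 to 5.39 for 8. WT KLRG1hi arrays 1 and 2, WT KLRG1lo arrays 1 and 2 and the first Id2KO and Id2KOBimKO arrays made up the lower background set, which the labels do not name. Array spread, taken as the interquartile range of all log2 values, ran from 2.44 to 2.87. The T cell markers Cd3e, Cd8a and Cd8b1 were high on every array, at 10.38 or more. Cd14, a monocyte marker, lay between 4.39 and 5.52, but other markers of non-T cells were brighter on some arrays. Within WT KLRG1lo the myeloid marker Lyz2 reached 8.44 and the B cell marker Cd74 reached 8.73. Id2 fell by 1.13 in Id2KO and by 1.19 in Id2KOBimKO against WT KLRG1lo (limma adjusted p = 0.0162 and 0.0182). Bcl2l11 was 7.51 on average on the arrays labelled BimKO and 7.60 in WT KLRG1lo, so the Bim status of those arrays rests on their labels. Klrg1 averaged 11.04 in KLRG1hi and 6.27 in KLRG1lo WT cells. The Id2KO arrays alone were low in Xist (4.73, against group means of 8.90 to 10.11) and high in the Y-linked Eif2s3y (7.79, against 3.04 to 3.45). The sex of the donors therefore cannot be told apart from the Id2KO label.

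Sequences upstream of these genes are shown because the mutated regulator, Id2, acts through E proteins, which bind the E-box core CANNTG. RefSeq windows of 250 bases before the gene start (assembly GRCm38.p6) were found for 7 of the 9 genes. S100a10 and Lgals1 had no entry. Anxa1 and Lgals3 are printed as the 2 genes that passed the test between the WT populations, and S100a6 and Vim as further members of the group, the first an S100 gene and the second the filament gene. Each runs 5′ to 3′ on the gene's strand, with E-box cores in capitals.
Anxa1, chr19:20390672-20390921, strand -: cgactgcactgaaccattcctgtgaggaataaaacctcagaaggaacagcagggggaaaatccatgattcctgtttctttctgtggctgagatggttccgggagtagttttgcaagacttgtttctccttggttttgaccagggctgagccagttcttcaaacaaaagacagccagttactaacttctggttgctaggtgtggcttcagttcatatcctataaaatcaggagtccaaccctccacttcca
Lgals3, chr14:47373610-47373859, strand +: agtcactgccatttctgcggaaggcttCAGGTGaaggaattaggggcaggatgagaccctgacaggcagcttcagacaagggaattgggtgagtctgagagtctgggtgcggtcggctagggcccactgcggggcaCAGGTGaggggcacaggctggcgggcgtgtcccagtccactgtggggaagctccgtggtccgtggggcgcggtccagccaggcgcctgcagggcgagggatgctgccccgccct
S100a6, chr3:90612644-90612893, strand +: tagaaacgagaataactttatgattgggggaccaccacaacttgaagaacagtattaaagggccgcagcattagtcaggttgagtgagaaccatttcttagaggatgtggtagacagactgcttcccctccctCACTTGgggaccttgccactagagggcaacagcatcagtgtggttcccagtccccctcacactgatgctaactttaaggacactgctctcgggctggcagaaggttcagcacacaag
Vim, chr2:13574061-13574310, strand +: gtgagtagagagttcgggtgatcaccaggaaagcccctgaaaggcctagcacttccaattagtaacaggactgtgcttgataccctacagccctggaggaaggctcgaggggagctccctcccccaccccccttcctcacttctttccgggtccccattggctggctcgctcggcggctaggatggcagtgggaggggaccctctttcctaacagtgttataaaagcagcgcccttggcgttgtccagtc

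The E-box core, searched on both strands, was found in 3 of the 7 windows (S100a6, S100a11 and Lgals3), against 66.2% of 32851 promoter windows of the same length. Lgals3 held 2, both with the letters CAGGTG that E proteins bind and that 17.2% of windows held. These lay at -223 and -114, where a position counts bases from the gene start to the first base of the match. The windows of Anxa1 and Vim held no E-box core, which says only that the letters were not in these 250 bases. The TATA box letters TATAAA were found in 4 of 7 windows, those of Anxa1, Anxa2, S100a4 and Vim, at positions from -32 to -17, against 12.4% of windows. The AP-1 letters TGANTCA were in 2 (Anxa2 and S100a11, against 6.75%), and the GC box letters GGGCGG in 3 (against 32.7%). The Runx letters TGTGGT were in the S100a6 window alone, at 3 places (14% of windows hold them). CCACCC was in 3 windows (28.1%), while a further E-box form, CAGCTG (13%), and the T-box letters TCACACC (3.33%) were in none. The same was true of the Tcf letters CTTTGAT (3.21%) and the Fox letters GTAAACA (3.17%). No match overlapped an E-box core except CAGGTG itself, which is one form of it. Matches are descriptions of letters and not of bound sites.

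WT KLRG1hi cells were compared with WT KLRG1lo cells to describe how the group follows the sort. Anxa1 rose 3.0-fold and Lgals3 1.99-fold in KLRG1hi cells, and these 2 of the 9 genes passed the test. In the same comparison 0.679% of all genes tested rose, and 0.942% passed in either direction. The estimates of all 9 genes were above 0, with a median log2 difference of 0.64, beside 0.002 for all genes tested. Because the 9 genes were chosen with earlier results of these data known, these figures describe the list and do not test it. The test was limma's, with passing set at 0.05 on p-values adjusted by Benjamini-Hochberg across 14438 genes, and log2 differences and SEs below come from that fit. Because the arrays measured bulk RNA, more cells with a transcript and more of it per cell cannot be told apart.

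Of the annexins, Anxa1 had log2 signals of 8.83, 9.05 and 9.87 on the KLRG1hi arrays and 7.95, 8.20, 7.34, 7.64 and 7.19 on the KLRG1lo arrays. Every KLRG1hi array was above every KLRG1lo array. The rise was 1.59 (SE 0.26, adjusted p = 0.00492), or 3.0-fold with a 95% interval of 2.05 to 4.40. Anxa2, which links membranes to actin, read 9.52, 10.15 and 10.39 against 9.71, 9.96, 8.58, 9.25 and 9.50. Here KLRG1hi array 1 lay below KLRG1lo arrays 1 and 2, and the difference of 0.62 (SE 0.27, adjusted p = 0.597) did not pass.

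Of the galectins, Lgals3, which encodes the galectin with a self-associating tail, read 8.90, 8.84 and 9.39 on the KLRG1hi arrays and 8.18, 8.11, 7.70, 8.37 and 7.89 on the KLRG1lo arrays. The groups did not overlap, and the rise was 0.99 (SE 0.21, adjusted p = 0.029), with a 95% interval of 1.46-fold to 2.70-fold. Lgals1, whose product can trigger death of activated T cells, read 12.24, 12.61 and 12.69 against 11.84, 12.14, 11.06, 11.44 and 11.59. Its arrays did not overlap either, with KLRG1lo array 2 nearest to the KLRG1hi arrays. The difference of 0.90 (SE 0.21) missed the threshold narrowly, at adjusted p = 0.050039. Vim read 11.69, 12.12 and 12.33 against 11.61, 11.73, 10.68, 11.11 and 11.21, so that KLRG1hi array 1 and KLRG1lo array 2 overlapped. Its difference was 0.78 (SE 0.21, adjusted p = 0.121).

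None of the 4 S100 genes passed. S100a6, a calcium sensor of dividing cells, read 10.79, 10.88 and 10.61 on the KLRG1hi arrays and 10.45, 10.55, 9.75, 10.11 and 10.11 on the KLRG1lo arrays. S100a10, the partner of annexin A2, read 12.25, 12.29 and 12.21 against 11.99, 12.12, 11.62, 11.53 and 11.77. For both genes the KLRG1hi arrays were all above the KLRG1lo arrays, with differences of 0.57 (SE 0.17, adjusted p = 0.199) and 0.45 (SE 0.16, adjusted p = 0.357). The motility-linked S100a4 overlapped between the groups, at 8.81, 9.57 and 9.56 against 9.16, 9.37, 8.03, 8.45 and 8.36, with a difference of 0.64 (SE 0.29, adjusted p = 0.648). S100a11, the partner of annexin A1, read 11.83, 11.69 and 11.06 against 11.41, 11.34, 11.01, 11.16 and 11.23. KLRG1hi array 3, the brightest array for Anxa1, Anxa2, Lgals1, Lgals3 and Vim, was the lowest KLRG1hi array for S100a11, whose difference was 0.30 (SE 0.17, adjusted p = 0.853). In all, 5 of the 9 genes (Anxa1, S100a6, S100a10, Lgals1 and Lgals3) were higher in KLRG1hi without overlap, as were 2.41% of genes tested.

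**Figure D1:**
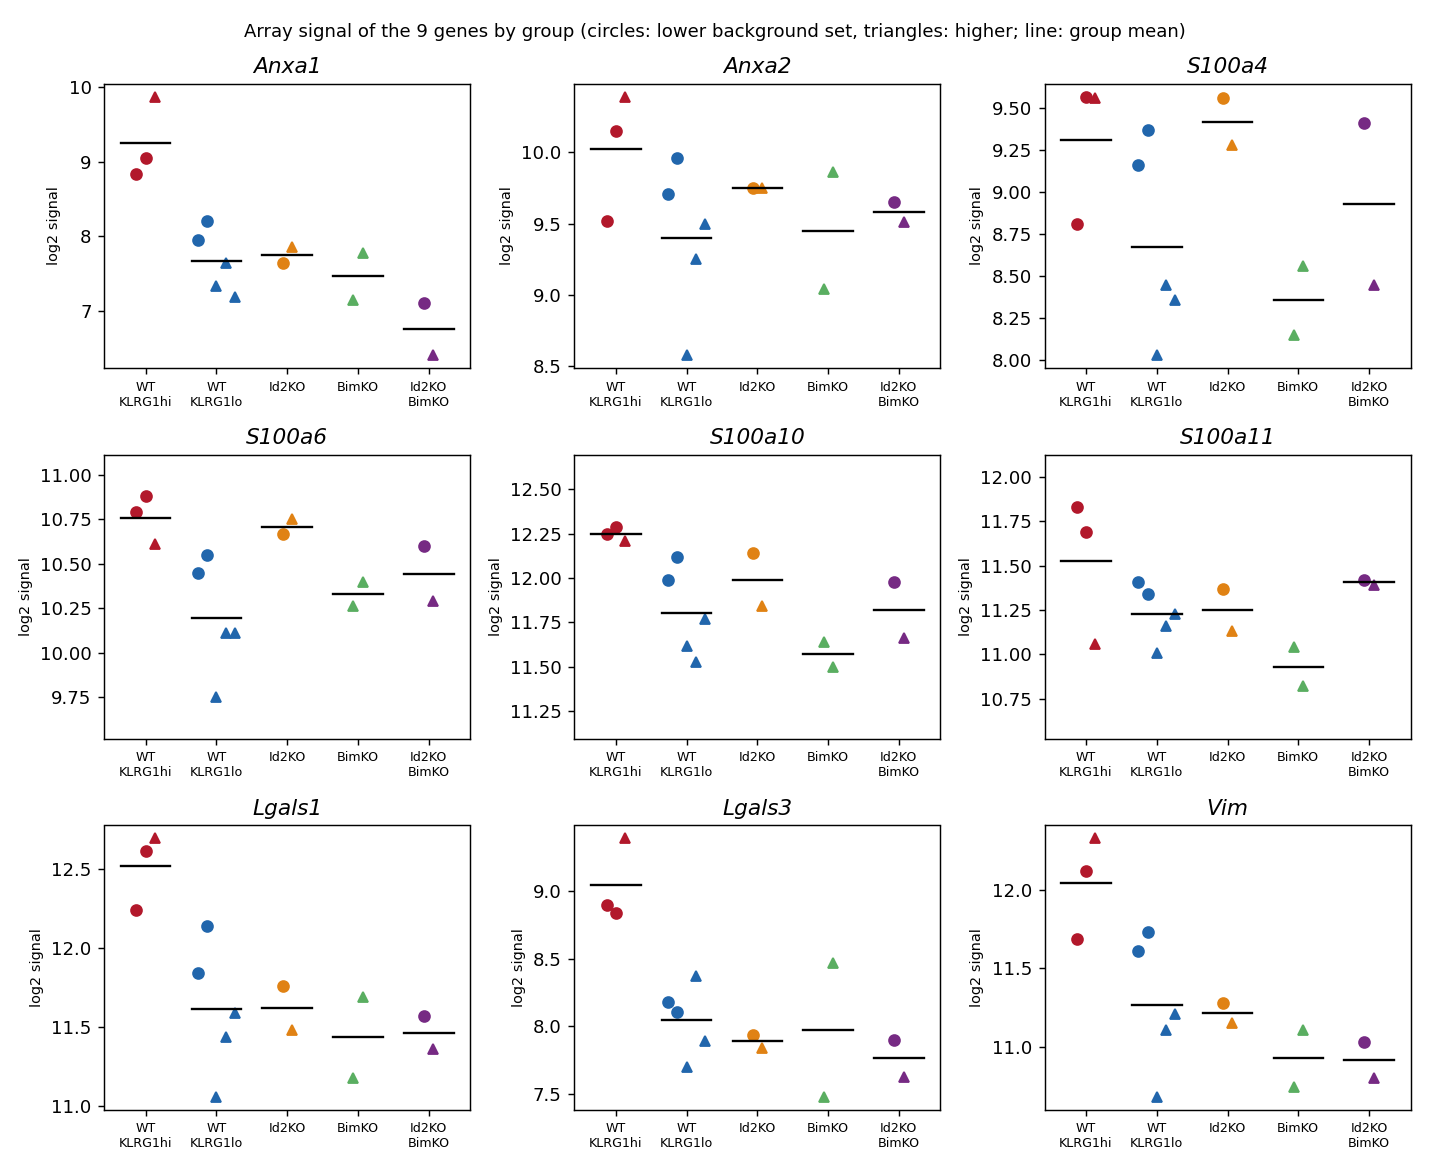
Log2 signal of each gene on every array (y axis, a scale of its own per gene) by group (x axis), with a line at the group mean; circles are arrays of the lower background set and triangles arrays of the higher. Anxa1 and Lgals3, and more narrowly S100a10 and Lgals1, show WT KLRG1hi arrays above those of all other groups. Within WT KLRG1lo the circles lie above the triangles for 8 of the 9 genes.

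The 5 WT KLRG1lo arrays were not alike for these genes. KLRG1lo arrays 1 and 2, of the lower background set, were above arrays 3 to 5 on average for all 9 genes and without overlap for 8, Lgals3 being the exception. Over all genes tested, 26.3% were higher without overlap in that split, 51.1% were higher on average and the median difference was 0.01. The differences within the group ran from 0.16 for Lgals3 to 0.98 for S100a4, with 0.69 for Anxa1, 0.63 for Lgals1 and 0.67 for Vim. Spread also differed between these arrays, at 2.68 and 2.82 on arrays 1 and 2 and 2.46, 2.48 and 2.57 on arrays 3 to 5, and its part in the result was not tested. Summed markers of some other cells also split the same arrays. The summed signal of 9 B cell markers was 432 and 427 on arrays 1 and 2 and 1010, 932 and 753 on arrays 3 to 5. That of 5 red cell precursor markers was 251 and 213 against 480, 399 and 656, and that of 12 neutrophil markers 351 and 327 against 461, 799 and 511. Monocyte and macrophage sums were 700 and 742 against 873, 1310 and 899. Dendritic cell sums were higher on arrays 1 and 2, at 1684 and 1712 against 1520, 1676 and 1652. A sum follows its brightest genes, however. The mean log2 signal of the same dendritic cell markers was lower there, at 5.98 and 5.84 against 6.22, 6.36 and 6.23. NK cell sums were 2478 and 3036 against 1903, 2247 and 2222. Mean log2 signals of the NK cell markers overlapped, at 6.85 and 6.99 against 6.73, 7.32 and 6.81. Platelet sums and fibroblast and endothelium sums overlapped. The part of those cells was not tested either.

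Set against KLRG1lo arrays 1 and 2 alone, none of the 9 genes passed. Anxa1 was then at 1.17 (adjusted p = 0.246) and Lgals3 at 0.90 (adjusted p = 0.394), and limma called 36 genes in all. Against arrays 3 to 5 alone 6 of the 9 passed: Anxa1, Lgals1 (adjusted p = 0.00599), Vim (0.0111), S100a6 (0.0228), Lgals3 (0.0348) and S100a4 (0.0479). Of all 14438 genes limma then called 255, beside 136 with all 5 arrays. Both splits were chosen after seeing the data.

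Within the lower background set, with 2 arrays a group, the difference between KLRG1hi and KLRG1lo was 0.86 for Anxa1, 0.72 for Lgals3, 0.44 for Lgals1 and 0.24 for Vim. Anxa2 and S100a4 were at -0.002 and -0.07 there, so that 7 of 9 genes were positive, with a median of 0.34. Within the higher set, with 1 KLRG1hi and 3 KLRG1lo arrays, the differences were 2.48, 1.41, 1.33 and 1.33 for the same 4 genes. There S100a11, at -0.07, was the single gene below 0, and the median was 1.28. With the array set as a block, Anxa1 was at 1.55 (adjusted p = 0.00838) and Lgals3 at 0.99 (adjusted p = 0.0426), and both passed in limma.

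The call of Anxa1 held when any 1 of the 8 WT arrays was left out, at log2 differences of 1.27 to 1.80. Lgals3 no longer passed without KLRG1hi array 2 (adjusted p = 0.0857) or 3 (0.103), or without KLRG1lo array 1 (0.0501), 3 (0.0823) or 5 (0.0861). Without KLRG1hi array 1, or without KLRG1lo array 2, Lgals1 and Vim passed as well, which gave 4 genes.

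**Figure D2:**
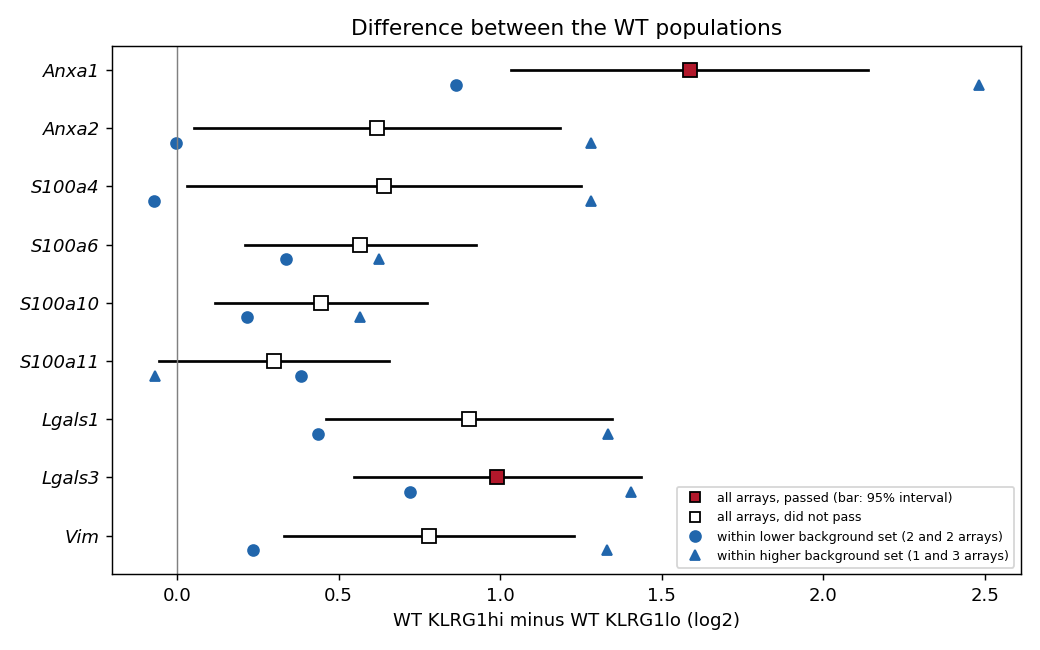
Log2 difference of WT KLRG1hi minus WT KLRG1lo for the 9 genes (x axis), from the fit on all arrays (squares, with 95% intervals; filled where the gene passed) and within each background set (circles, 2 and 2 arrays; triangles, 1 and 3 arrays). Anxa1 and Lgals3 are positive in both sets, at 0.86 and 2.48 and at 0.72 and 1.41, while Anxa2 and S100a4 are near 0 in the lower set.

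Markers of other cell types were set beside these differences, because several of the 9 genes are abundant in myeloid cells. Of 9 monocyte and macrophage markers tested, 0 passed in limma; 7 had negative and 2 positive estimates in KLRG1hi, with a median of -0.29. Their summed linear signal, over 11 markers on the array, was 673 to 816 on KLRG1hi arrays and 700 to 1310 on KLRG1lo arrays. Lyz2, a lysozyme of myeloid cells, was 4.98 to 5.36 in KLRG1hi, near background, and 5.26 to 8.44 in KLRG1lo. The summed signal of 12 neutrophil markers was 314 to 430 and 327 to 799. Array by array, KLRG1hi arrays 1 and 2 had monocyte and macrophage sums of 795 and 816, above 700 and 742 on KLRG1lo arrays 1 and 2. KLRG1lo array 4, the brightest KLRG1lo array for Lgals3, had the highest sums of both kinds, and the part of such cells in the result was not tested. Of 6 NK cell markers tested, Klrb1c alone rose (2.92, adjusted p = 3.12e-05), and the median was 0.67. The B cell markers, of which 0 of 7 passed, had a median of -0.45. Of 8 fibroblast and endothelium markers Pecam1, which encodes an adhesion molecule also found on leukocytes, fell by 1.13 (adjusted p = 0.00977) and the median was -0.12. In limma 0 of 8 dendritic cell markers passed (median -0.18), as did 0 of 5 of red cell precursors (median -0.42) and 0 of 4 of platelets (median -0.01).

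The relatives of the 9 genes were counted in the same comparison. Of the other annexins 5 of 10 were bright enough to be tested and 0 passed, although all 5 estimates were positive (median 0.21). Anxa4 was at 0.71 (SE 0.24, adjusted p = 0.315), the smallest p of that family. Of the other S100 genes 9 of 13 were tested, 0 passed and 6 were negative. S100a1 was at 0.41 (adjusted p = 0.493) and S100a9, a calprotectin subunit of neutrophils, at -1.12 (SE 0.50, adjusted p = 0.636). The other galectins, with Lgals3bp, had 6 of 7 tested and 0 passed. Lgals9 was at 0.15 and Lgals7 at 0.13, beside 0.99 and 0.90 for Lgals3 and Lgals1.

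Partners of the group also gave 0 genes past the threshold. Capn2, a calcium-activated protease, was at 0.70 (SE 0.24, adjusted p = 0.308), and Ahnak, a scaffold that binds S100a10 with annexin A2, at 0.45 (SE 0.17, adjusted p = 0.412). Among 13 genes for galectin ligands and the enzymes that build them, Spn, which encodes CD43, was at 0.63 (adjusted p = 0.364) and St6gal1 at -0.80 (SE 0.26, adjusted p = 0.264). The other intermediate filament genes held Lmnb1, of the nuclear lamina, at 0.64 (SE 0.18, adjusted p = 0.147) and Krt8 at -0.35. Of 19 actin and membrane skeleton genes 18 were positive (median 0.23), with Flna, a filamin that crosslinks actin, at 0.57 and Emp3 at 0.52, but 0 passed. Of the genes named here Anxa4, S100a1, S100a9, Capn2, Ahnak, Spn, St6gal1, Lmnb1 and Flna had an unadjusted p under 0.05 in limma. They were named for having the smallest p of their lists in this comparison. Their number therefore cannot be set against the 7.2% of all genes under 0.05.

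The mutant KLRG1lo groups were set against the same 5 WT KLRG1lo arrays, so the 3 comparisons share their controls and inherit the split between those arrays. None of the 9 genes passed in limma in any of the 3. In Id2KO against WT, 0.111% of all genes passed, Xist and the Y-linked Eif2s3y and Uty among them. At an unadjusted p under 0.05 stood 2 of the 9 genes, S100a4 and S100a6, beside 18.1% of all genes. In BimKO 0% of genes passed and 0 of the 9 had an unadjusted p under 0.05, beside 6.91% of all genes. In Id2KOBimKO 0.0623% passed, and Anxa1 alone of the 9 had an unadjusted p under 0.05, beside 3.95% of all genes.

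S100a6 read 10.67 and 10.75 on the Id2KO arrays, above all 5 WT KLRG1lo arrays, whose highest was 10.55. In that comparison 14.2% of all genes were higher without overlap. The difference was 0.52 (SE 0.19, unadjusted p = 0.0167, adjusted p = 0.275). S100a4 read 9.56 and 9.28, of which the second lay below WT KLRG1lo array 2 at 9.37, and differed by 0.75 (SE 0.33, unadjusted p = 0.0371, adjusted p = 0.275). The other 7 genes lay between -0.16 (Lgals3) and 0.35 (Anxa2), each overlapping the WT arrays.

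Both S100 differences moved with the WT arrays and with the spread. Within the lower background set S100a4 differed by 0.30 and S100a6 by 0.17, and within the higher set by 1.00 and 0.76, with 1 Id2KO array in each set. Against KLRG1lo arrays 3 to 5 alone both passed (S100a4 at 1.14, adjusted p = 0.0404; S100a6 at 0.72, adjusted p = 0.0412), a setting chosen after seeing the data. Of all 14438 genes limma then called 708, of which 594 were higher, beside 16 with all 5 WT arrays, so these calls came with many others. Over the alternatives the adjusted p ran from there to 1.00 and the differences from 0.0012 to 1.14 for S100a4 and from 0.21 to 0.72 for S100a6. The low end for S100a4 came with the array spread as a covariate, and the Id2KO arrays had spreads of 2.83 and 2.87. After quantile normalization 3 of the 9 estimates in Id2KO were positive, where 7 were without it, so no direction is given for the group. Monocyte and macrophage markers had negative estimates in Id2KO (9 of 9 tested, median -0.57, 0 passed), with a summed signal of 603 to 611; their part in these differences was not tested.

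In BimKO, 2 of the 9 estimates were positive, and the values ran from -0.34 for Vim to 0.14 for S100a6. The 2 arrays often lay far apart: Lgals3 read 7.48 and 8.47, and Anxa2 9.04 and 9.86. That gap is wider than the difference from the WT mean for either gene. BimKO array 2, the brighter for both genes, also had higher summed markers of several other cells. On arrays 1 and 2 B cell sums were 403 and 923, and monocyte and macrophage sums 624 and 965. Neutrophil sums were 341 and 483, red cell precursor sums 239 and 626, and NK cell sums 2049 and 3328. Fibroblast and endothelium sums went the other way, at 839 and 771. The part of such cells was not tested.

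In Id2KOBimKO, Anxa1 read 7.10 and 6.41, below all 5 WT KLRG1lo arrays, whose lowest was 7.19. Arrays were lower without overlap for 7.27% of all genes in that comparison. The difference was -0.91 (SE 0.30, unadjusted p = 0.00769), and it did not pass (adjusted p = 0.785). It was -0.97 within the lower background set and -0.98 within the higher, each from 1 Id2KOBimKO array against 2 or 3 WT KLRG1lo arrays. With the array spread as a covariate Anxa1 fell by 1.20 (adjusted p = 0.0109), while the adjusted p over all alternatives ran from there to 1.00. Without the covariate, 6 of 6 NK cell markers had negative estimates in Id2KOBimKO (median -0.65). So had 9 of 9 monocyte and macrophage markers (median -0.31) and 6 of 6 neutrophil markers (median -0.27). B cell markers were mixed, with 3 positive and 4 negative (median -0.07), as were red cell precursor markers, with 2 positive and 3 negative. Most dendritic cell, fibroblast and endothelium markers and all 4 of platelets were negative. None of these markers of other cells passed in limma. Their part in the Anxa1 difference was not tested. The other 8 genes lay between -0.36 (Vim) and 0.26 (S100a4), all with overlap.

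**Figure D3:**
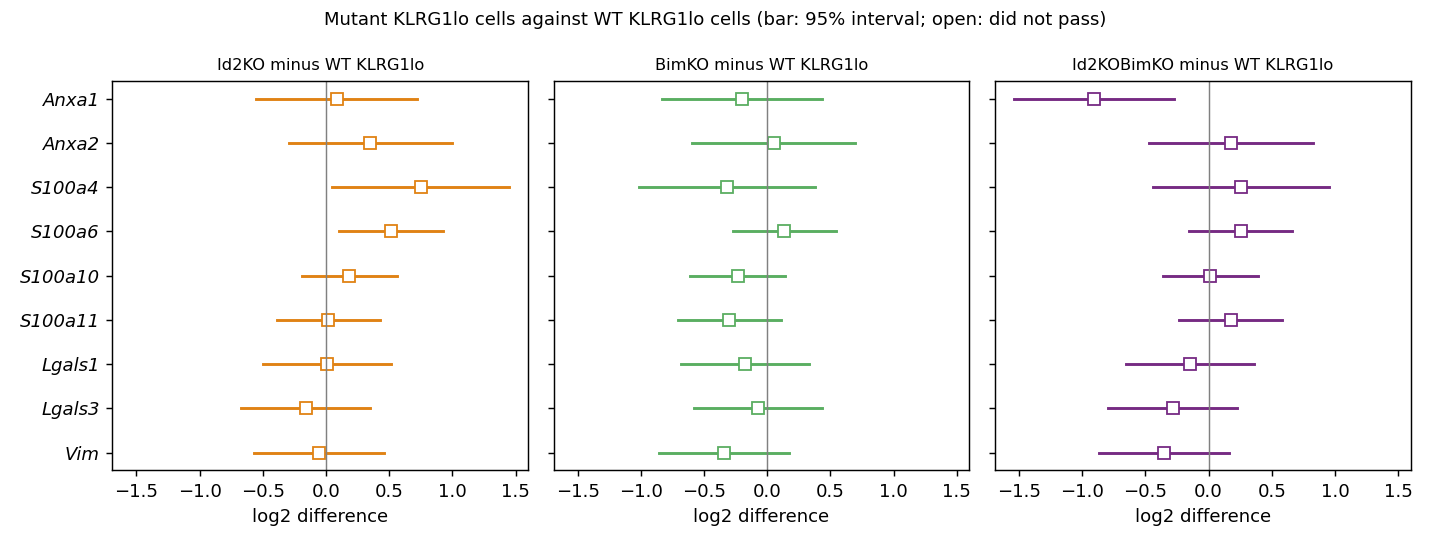
Log2 difference of each mutant KLRG1lo group from WT KLRG1lo (x axis) for the 9 genes, with 95% intervals; open squares mark genes that did not pass, which is all of them. Anxa1 in Id2KOBimKO, at -0.91, and S100a4 and S100a6 in Id2KO, at 0.75 and 0.52, have intervals that leave out 0.

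Comparisons between the mutants gave no calls among the 9 genes. For Id2KOBimKO against BimKO, which share the Bim label, 0% of all genes passed and 0 of the 9 had an unadjusted p under 0.05 (1.81% of all genes). Anxa1 was at -0.71 (SE 0.36) and S100a11 at 0.48 (SE 0.23). S100a11 read 11.42 and 11.39 on the Id2KOBimKO arrays, above 11.04 and 10.82 on the BimKO arrays, as 17.6% of genes were higher without overlap. For Id2KOBimKO against Id2KO 0.0277% of all genes passed, Xist, Eif2s3y and Uty among them. Anxa1 there was at -0.99 (SE 0.36, unadjusted p = 0.0134), the single gene of the 9 with an unadjusted p under 0.05, beside 0.803% of all genes.

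Averaged over both Bim backgrounds, the Id2 effect on the 9 genes had a median of 0.22, beside 0.02 for all genes tested. After quantile normalization the median was 0.03, beside 0.004, with 5 of the 9 estimates positive, so no direction is given for the group. Without that normalization 0.18% of all genes passed in limma. Of the 9 genes S100a4 alone then had an unadjusted p under 0.05 (0.66, SE 0.26, unadjusted p = 0.02, adjusted p = 0.62), beside 7.11% of all genes. For the interaction of Id2 and Bim 0.0277% of all genes passed and 0 of the 9 had an unadjusted p under 0.05, beside 4.27% of all genes. Anxa1 gave the largest estimate of the 9 in size, -0.79 (SE 0.47, adjusted p = 0.726). The genes that passed for the mean Id2 effect and for the interaction included Xist, Eif2s3y and Uty. The sex difference of the Id2KO arrays thus enters both.

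St6gal1, the sialyltransferase gene, passed in no comparison. Its mean was 5.55 in KLRG1hi and 6.35 in KLRG1lo WT cells, 6.98 in BimKO, 7.49 in Id2KO and 7.73 in Id2KOBimKO. The difference from WT KLRG1lo was 1.14 in Id2KO (SE 0.29, adjusted p = 0.275) and 1.38 in Id2KOBimKO (SE 0.29, adjusted p = 0.177). The mean Id2 effect was 0.95 (SE 0.23, adjusted p = 0.19).

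Over the 5 groups, mean signal was highest in WT KLRG1hi for 8 of the 9 genes, and for S100a4 in Id2KO, with WT KLRG1hi next and within its spread. Anxa1 had the clearest order: 9.25 ± 0.55 (SD, n = 3) in WT KLRG1hi stood 1.5 above Id2KO, at 7.75 ± 0.16 (SD, n = 2). WT KLRG1lo, at 7.66 ± 0.42 (SD, n = 5), and BimKO, at 7.47 ± 0.45 (SD, n = 2), did not differ from Id2KO or from each other beyond their spread. Id2KOBimKO, at 6.76 ± 0.49 (SD, n = 2), was 0.71 below BimKO, more than the larger SD of the 2 groups, but this difference did not pass in limma.

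For Lgals3 the step from 9.04 ± 0.31 (SD, n = 3) in WT KLRG1hi to 8.05 ± 0.26 (SD, n = 5) in WT KLRG1lo was larger than the spread, and the 3 mutant groups followed, with BimKO at 7.98, Id2KO at 7.89 and Id2KOBimKO at 7.77, each within the spread of its neighbour. Lgals1 dropped by 0.90 from WT KLRG1hi (12.52 ± 0.24, SD, n = 3) to Id2KO (11.62 ± 0.20, SD, n = 2), and the remaining groups, down to 11.43 in BimKO, lay within their spread of each other. Vim in Id2KO was 0.29 above BimKO, beside a larger SD of 0.26 in the 2 groups, and its WT KLRG1hi and KLRG1lo arrays overlapped. S100a6 in WT KLRG1hi (10.76 ± 0.13, SD, n = 3) and Id2KO (10.71 ± 0.06, SD, n = 2) lay within their spread, as did S100a11 in WT KLRG1hi (11.53 ± 0.41, SD, n = 3) and Id2KOBimKO (11.41 ± 0.02, SD, n = 2). S100a10 in WT KLRG1hi (12.25 ± 0.04, SD, n = 3) stood 0.26 above Id2KO, beside a larger SD of 0.21. The lower 4 groups were within their spread of each neighbour.

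The second S100a11 probe set was dimmer and followed the first, with r = 0.958 over the 14 arrays. Its mean was 11.03 in WT KLRG1hi, 10.76 in WT KLRG1lo, 10.74 in Id2KO and 10.32 in BimKO. Both probe sets put WT KLRG1hi highest, Id2KOBimKO next and BimKO lowest.

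The 9 genes varied together over the arrays to different degrees. Lgals1 and Vim were closest (r = 0.977 over 14 arrays, and 0.969 for deviations from group means), followed by Anxa1 with Vim (0.915) and Anxa1 with Lgals3 (0.910). Anxa2 and Lgals1 were closer within groups (0.950) than over all arrays (0.834). S100a11 was the least alike, at 0.232 with Anxa1 and -0.375 for deviations from group means. Of the 4 S100 genes, S100a4 lies 2 genes from S100a6 in the RefSeq order, with S100a5 between them, and S100a10 and S100a11 are neighbours. S100a4 and S100a6 correlated at 0.836, and S100a10 with S100a11 at 0.712. S100a5, tested between them, was at -0.01 between the WT populations.

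These correlations are descriptions, since all arrays of a group share their sort and the arrays share differences in spread and background. Log2 signal correlated with array spread at 0.744 for S100a4, 0.687 for Anxa2 and 0.557 for S100a6, and at 0.193 for Anxa1, 0.034 for Lgals3 and -0.145 for S100a11. With array background the correlation was -0.825 for S100a10 and -0.716 for S100a11, and between -0.310 and -0.645 for the others.

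**Figure D4:**
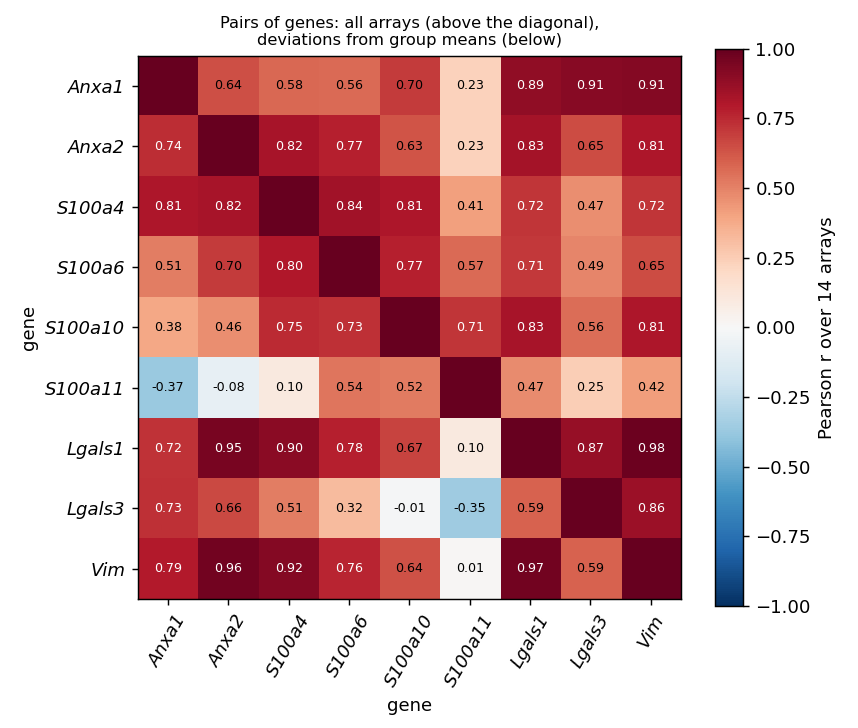
Pearson r of log2 signal between each pair of the 9 genes (both axes) over 14 arrays, from the signals themselves above the diagonal and from deviations from group means below it. Lgals1 with Vim is highest on both sides, at 0.98 and 0.97, and the row and column of S100a11 are the palest.

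Genes outside the group were ranked by how closely their log2 signal followed it over the 14 arrays. The mean of the 9 genes was followed most closely by Prf1, which encodes perforin (r = 0.986), then by Snx18 (0.956), Arsb (0.953), Incenp (0.949) and Tbx21, which encodes the transcription factor T-bet (0.949). For single genes the closest were the chemokine gene Ccl5 for Anxa1 (0.964), Sema4a for Anxa2 (0.952) and the proteasome gene Psmc3 for S100a4 (0.966). They were Elf4 for S100a6 (0.919), Tprgl for S100a10 (0.929) and Akap12 for S100a11 (0.914). Arsb was closest to Lgals1 (0.977), the inhibitory receptor gene Havcr2 to Lgals3 (0.931) and Prf1 to Vim (0.960). Psmc3 and S100a4 both followed the array spread (0.776 and 0.744), whereas Havcr2 and Lgals3 did not (-0.003 and 0.034). Each was picked as the highest of 14429 values, predicted names passed over.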

How the data were processed

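The 14 arrays were grouped by their titles, with 1 array per sample. The deposited values were the authors' RMA intensity, linear in scale, of 34760 probe sets; RMA and the assembly mm9 are named per the submitters' processing notes, and the size of the values shows that they are not logs. The sources used here do not give further steps, and no scanner signals were used.

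Intensities were log2-transformed without an offset. Of the probe sets 21640 carried 1 gene name, 1321 several and 11799 none; 21553 were matched by Entrez number to RefSeq names (assembly GRCm38.p6), which served only for names, gene order and promoter sequence. The brightest probe set stood for each gene. A gene was tested if it lay above the 40th percentile on at least 2 arrays. Group means were fitted to all 14 arrays with limma 3.58.1 in R 4.3.3 (tables read with the data.table package, version 1.17.8), with degrees of freedom of 9 (residual) and 7.99 (prior); two-sided p-values were adjusted by Benjamini-Hochberg over all genes tested. The fit gave 8 comparisons. Only that between the WT populations was first tested on simulated data, so the comparisons with mutants were not tested in that way. Motifs were searched in Python 3.11.15 and plots drawn with matplotlib 3.10.9. For arrays, their number limits the precision.

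The 9 genes and all gene lists were chosen with earlier results of these data known. All 9 genes are given in every comparison. Of each family, partner and skeleton list the genes past the threshold are named, and otherwise up to 2 with the smallest unadjusted p between the WT populations. Of likeness the best gene for each of the 9, and the 5 best for their mean, are named. The arrays were parted into background sets at the largest gap, 0.085 log2, a rule that always gives 2 sets.

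Alternatives were quantile normalization, an offset of 16, no filter or a stricter one at the 60th percentile, the mean over probe sets, only the groups compared, a robust fit with trend, a replicate block, array spread as a covariate, the array set as a block, and each array left out in turn. Fits against parts of the WT KLRG1lo group were added after seeing the data.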

Additional observations from a re-analysis of the deposited data

How the results depend on the processing

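Between the WT populations 2 of the 9 genes passed as reported. The count was 4 after quantile normalization and 4 with array spread as a covariate. It was 0 with the replicate block, where Anxa1 was at 1.42 (adjusted p = 0.103) and Lgals3 at 1.05 (adjusted p = 0.178). Same-numbered arrays of different groups correlated in their deviations from group means at r from -0.524 to 0.410, and no label gives the numbers a meaning, so they were not taken as pairs. The count was 0 against WT KLRG1lo arrays 1 and 2 and 6 against arrays 3 to 5, where 255 of all genes passed. Leaving out each array in turn gave 1 to 4. Over 20 alternatives Anxa1 passed in 18, Lgals3 in 13, Lgals1 in 6, Vim in 5, S100a4 and S100a6 in 1 each, and Anxa2, S100a10 and S100a11 in 0, and no estimate changed sign. Over the same settings the count over all genes tested ran from 36 (arrays 1 and 2) to 376 (array spread), beside 136 as reported, with 226 after quantile normalization and 42 with the block.

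In Id2KOBimKO against WT the count was 1 with array spread as a covariate (Anxa1), and in Id2KO against WT it was 2 against KLRG1lo arrays 3 to 5 (S100a4 and S100a6), where 708 of all genes passed, beside 16 as reported. It was 0 in every other alternative run of the comparisons with mutants, arrays left out included. No change that passed reversed. With each gene counted once under each alternative of each comparison, 129 recomputed estimates had the other sign, all for changes that had not passed. These were 0 of 180 between the WT populations and 32 of 171 in Id2KO against WT. The causes were not tested, except that a fit on fewer arrays has fewer degrees of freedom. With 2 arrays a group, 95% intervals against WT KLRG1lo reach 0.38 to 0.70 log2 to either side, before any adjustment for the number of genes. Changes beyond that width also failed to pass, such as Anxa1 in Id2KOBimKO at -0.91. Changes of that size may therefore go undetected as well.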

Other observations

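Outside the 9 genes, several relatives had positive estimates in Id2KO against WT KLRG1lo that did not pass; they were named after their values were seen. Anxa5, which binds phosphatidylserine on dying cells, was at 0.67 (SE 0.28, adjusted p = 0.275), Anxa7 at 0.50 (SE 0.19, adjusted p = 0.275) and Lgals3bp, a glycoprotein that binds the product of Lgals3, at 0.55 (SE 0.22, adjusted p = 0.275), all from limma. Between the WT populations Anxa5 and Lgals3bp were at 0.04 and 0.02. Averaged over both Bim backgrounds Lgals3bp was at 0.50 (SE 0.17, adjusted p = 0.62) and Anxa5 at 0.44 (SE 0.21, adjusted p = 0.62). Other relatives were lower in Id2KO than in WT KLRG1lo, also without passing: S100a8 at -0.70 (SE 0.31), Krt8 at -0.53 (SE 0.22) and Des at -0.53 (SE 0.24). Estimates there were negative for 6 of 9 other S100 genes and 9 of 11 other filament and linker genes. They were negative for 3 of 6 other galectin genes and 0 of 5 other annexins. Of all genes tested 18.1% had an unadjusted p under 0.05 in that comparison.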
